A study of Mus musculus with 9 samples.

Results

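Fbp1, a fructose bisphosphatase, was followed together with 9 listed enzymes of glycolysis (Hk1, Hk2, Pfkl, Aldoa, Tpi1, Pgk1, Eno1, Pkm and Ldha) in mouse lung in a model of allergic asthma. The members are all probe sets to which the array's annotation gives 1 of these symbols and no other. They number 12 of 12422 probe sets and stand for 9 of the 10 listed genes. Eno1 is named by no such probe set and was not analysed here. The 9 arrays form 3 groups of 3, all from lung of C57BL6 mice. A saline group served as control, a second group received ovalbumin (OVA), a protein of hen's egg used as allergen, and the last received OVA and an EP3 agonist, a compound that activates a prostaglandin receptor. Titles give 24 h for the OVA and the agonist groups and no time for saline. The labels used here state neither the agonist's name and dose nor the age of the mice. The members were chosen by name with earlier results of these arrays known, the intensity of Fbp1 in OVA lung among them. Values of Fbp1 are therefore a description without a test, and counts over the members are descriptions too.

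Glycolysis splits glucose into pyruvate in the cytosol. Hexokinases trap the sugar, phosphofructokinase commits it, aldolase and triosephosphate isomerase handle the pieces, phosphoglycerate kinase and pyruvate kinase make ATP, and lactate dehydrogenase turns pyruvate into lactate. Fbp1 runs the phosphofructokinase step backwards and is best known from liver and kidney, where glucose is made. Immune cells that are activated, macrophages in particular, often take up and ferment more glucose, and many glycolytic genes are known targets of the hypoxia-inducible factors, which bind DNA through a short core motif.

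The promoters of Fbp1, Pgk1 and Ldha are shown because Fbp1 differs most between OVA and saline lung in the values below and Pgk1 and Ldha are the glycolytic members that passed the test there. Each runs from 250 bases before to 50 bases after a RefSeq start site (GRCm38.p6) and is written 5′ to 3′ on the gene's strand. Capitals mark the letters ACGTG and GCGTG, the core of the hypoxia response element, on either strand, and neighbouring or overlapping matches run together. The Fbp1 window (chr13:62888233-62888532, minus strand) holds neither motif.
Fbp1: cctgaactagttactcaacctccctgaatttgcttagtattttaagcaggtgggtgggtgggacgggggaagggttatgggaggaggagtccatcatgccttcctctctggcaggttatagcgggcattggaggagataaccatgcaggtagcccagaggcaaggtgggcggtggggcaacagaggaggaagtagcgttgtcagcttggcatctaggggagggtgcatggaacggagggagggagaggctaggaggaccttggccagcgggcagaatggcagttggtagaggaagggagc
The Pgk1 window (chrX:106186850-106187149, plus strand) holds ACGTG 2 times.
Pgk1: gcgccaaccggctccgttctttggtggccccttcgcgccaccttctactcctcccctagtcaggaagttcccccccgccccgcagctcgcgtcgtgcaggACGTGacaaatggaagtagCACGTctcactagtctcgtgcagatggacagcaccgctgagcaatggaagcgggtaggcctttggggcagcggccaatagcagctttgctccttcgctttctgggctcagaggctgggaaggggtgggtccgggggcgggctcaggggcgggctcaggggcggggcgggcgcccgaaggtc
The first of 2 Ldha windows (chr7:46845554-46845853, plus strand) holds ACGTG 5 times, counting both strands of a palindrome, and GCGTG 2 times.
Ldha: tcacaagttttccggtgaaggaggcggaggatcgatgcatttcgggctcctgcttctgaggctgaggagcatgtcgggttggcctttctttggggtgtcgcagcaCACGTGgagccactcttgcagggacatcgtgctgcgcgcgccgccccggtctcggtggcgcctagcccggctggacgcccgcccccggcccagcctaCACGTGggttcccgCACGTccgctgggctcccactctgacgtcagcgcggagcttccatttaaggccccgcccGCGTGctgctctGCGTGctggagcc
RefSeq promoters were matched for all 10 listed genes, 17 windows in all, some of them overlapping. ACGTG occurs in 7 of the 17, and GCGTG in 7, beside 19.6% and 32.4% of 32851 windows of 300 bases. ACGTG also occurs in some or all windows of Hk1, Aldoa, Hk2 and Pkm. A bearing of the motif on the levels below was not tested. A match of 5 letters is a description of the sequence and no binding site.

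Array medians of the deposited intensity ran from 62.9 to 104.6, and each array was multiplied by a factor of 0.741 to 1.29 to reach a common level. All intensities below are on that scale, which is linear, as mean ± SD of 3 arrays, and 44.7, the 40th percentile of all values, is the detection limit. Markers of alveolar type 2 cells, the makers of surfactant, were far above it on all arrays (summed intensity of 5 genes 19439 to 26015). The ratio of 3′ to 5′ signal, a sign of RNA quality, was 1.08 to 1.16 for the Gapdh control and 1.34 to 1.51 for the actin control, with the 3 agonist arrays highest for actin (1.48 to 1.51). Agonist replicate 3 stood apart from the other agonist arrays in markers of macrophages and goblet cells. The labels do not say that the 3 arrays of a group are 3 mice, so p-values measure the spread between these arrays, which may be technical. In pieces of lung, more cells of a type and more RNA per cell cannot be told apart.

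Fbp1 signal was present in OVA lung and absent from the detectable range in the other groups. On the saline arrays its intensity read −15.3, −27.0 and −25.2, on the OVA arrays 440.5, 399 and 304, and on the agonist arrays −6.06, −7.33 and −31.7. All 3 OVA arrays thus lay far above the detection limit, and all 6 other arrays lay below 0. The means were −22.5 ± 6.31, 381 ± 70.2 and −15.03 ± 14.5. Against the detection limit, OVA lung was at least 8.42-fold higher than saline lung, and at least 8.42-fold higher than lung given the agonist. Saline and agonist arrays overlapped, and no fold can be given between groups that both lie below the limit. Among the saline and agonist arrays no single array came near the limit.

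**Figure D1:**
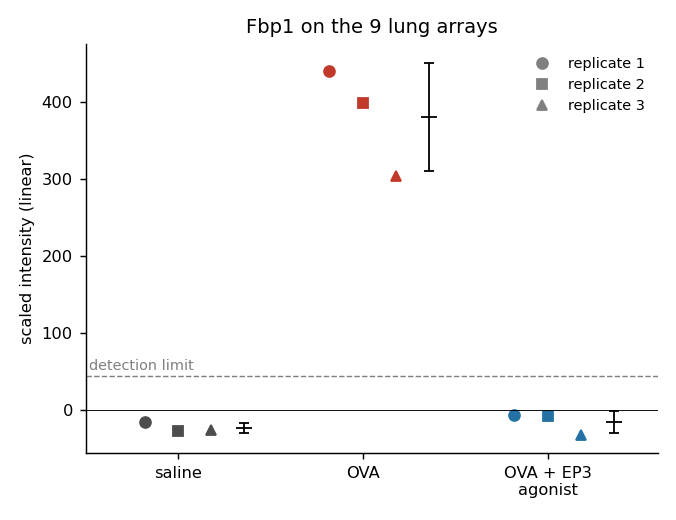
Scaled intensity of Fbp1 (linear axis) on each array, by group, with the mean and SD of 3 arrays beside the points and the detection limit of 44.7 as a dashed line. The 3 OVA arrays sit between 304 and 440.5 and the 6 others below 0.

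This pattern is rare on the array: 33 of 12422 probe sets (0.266%), from 27 named genes, exceeded the limit on all 3 OVA arrays and on none of the other 6. Ranked by the bound on their fold, Fbp1 was the third of them. Ccl17, a chemokine for type 2 helper T cells, came first (at least 12.7-fold) and Alox15, a lipoxygenase, followed Fbp1 (at least 4.10-fold). Log2 levels over the 9 arrays ran most like Fbp1 for Ccl17 (Pearson r = 0.9999), Chaf1a, a histone chaperone (0.998), and Alox15 (0.996). Next came Plk4, a centriole kinase (0.987), and Col6a2, a collagen VI chain (0.98). Fbp1 was held at a common floor on the 6 saline and agonist arrays, so each r sets the OVA arrays against the rest. Ccl17, Chaf1a and Alox15 are among the 33 and were held at that floor on the same arrays. Their high r follows from that pattern and is no second likeness. All 5 values are descriptions of 9 points.

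The list fixed as macrophage markers moved with the OVA group and is given beside Fbp1. Of 16 tested markers 12 rose from saline to OVA and 0 fell, where 5.08% of all 7920 tested probe sets rose and 4.42% fell. From OVA to agonist 3 fell (Mmp12, C1qb and C1qa) and 0 rose, where 1.5% of all tested probe sets fell. The dimmer C1qb probe set, left out of these counts, averaged 216 on saline, 162 on OVA and 168 on agonist arrays and passed in neither comparison. The summed intensity of 19 markers ran from 8738 to 9117 on saline arrays, from 19001 to 22000.5 on OVA arrays, and read 10110 and 10408 on agonist replicates 1 and 2 but 15902 on replicate 3. On agonist replicate 3, the agonist array with the most macrophage signal, Fbp1 was below the limit, as on the other agonist arrays. Arg1, the arginase of alternatively activated macrophages, read 75.9 on that array, above the limit. Of 7 liver markers, Apoa1, Fgb, Tat and Ttr were below the limit on all 9 arrays, and of the 2 tested 0 passed in either comparison (summed intensity of the 7 genes 110.2 to 216.5 on saline, 112.6 to 186.5 on OVA and 156.5 to 199 on agonist arrays). Mmp12, a macrophage elastase, read 2119, 2333 and 1685 on the OVA arrays, 266, 207 and 460 on the agonist arrays, and at most 155 on the saline arrays. Of 5 eosinophil markers, Alox15, the 1 that was tested, has the same pattern as Fbp1. Ccr3, the eotaxin receptor, read 2.06, 27.7 and 20.02 on saline, 22.02, 33.6 and 44.8 on OVA, and 5.71, −5.70 and 14.1 on agonist arrays, above the limit on 1 OVA array. Epx, Il5ra and Prg2 were below the limit on all arrays. Other marker lists also held rises from saline to OVA. Of 3 tested goblet cell markers 3 rose, of 7 smooth muscle markers 3, and of 5 B and plasma cell markers 1, and 0 fell. The part of any of these cells in the Fbp1 signal was not tested.

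**Figure D2:**
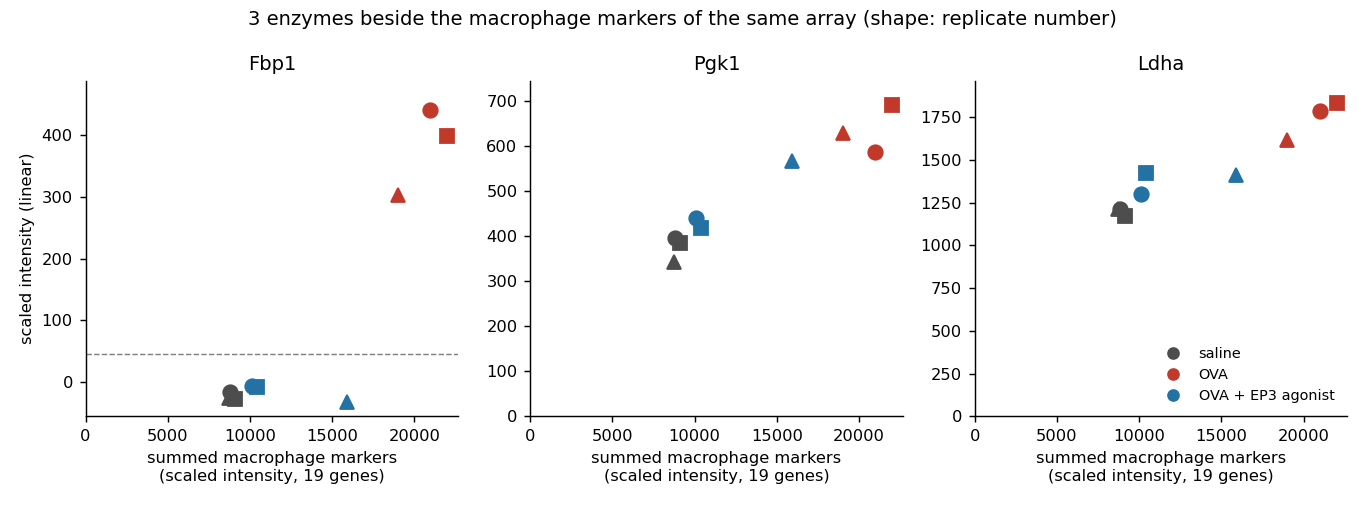
Scaled intensity of Fbp1, Pgk1 and Ldha (linear axes) against the summed intensity of 19 macrophage markers on the same array, coloured by group, with the shape giving the replicate number. The marker sums of agonist replicates 1, 2 and 3 were 10110, 10408 and 15902. On each of them Pgk1 (439, 417 and 567) and Ldha (1299, 1424 and 1414) were above all saline arrays while Fbp1 was below 0.

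Among the glycolytic enzymes themselves, Pgk1 and Ldha rose from saline to OVA lung and the others did not pass limma's test. Of 10 tested probe sets for 8 genes, 2 rose, 0 fell and 8 did not pass, where 9.49% of the 7920 probe sets tested on the array passed in either direction (5.08% rose and 4.42% fell). Their median log2 change was 0.18, against −0.08 over all tested probe sets. The groups did not overlap, OVA being higher, for 4 of the 10 (Tpi1, Pgk1, Ldha and 1 of the Pkm probe sets), as for 15.5% of all tested probe sets. In what follows a change is a log2 difference of group means with its standard error, and adjusted p is limma's, adjusted by Benjamini-Hochberg over all 7920.

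Hk1 and Hk2, the hexokinases, open the pathway. Hk1 read 1766, 1729 and 1683 on saline, 1767, 1677 and 1694 on OVA, and 1756, 1727 and 1689 on agonist arrays. The groups overlapped throughout, and the change from saline to OVA was −0.01 ± 0.07 (adjusted p = 0.929), with a 95% interval of −0.18 to 0.15. Hk2, the inducible hexokinase, was hardly detected. Its dimmer probe set stayed between −6.30 and 7.35 and was not tested, and the other exceeded the limit on 1 OVA array (71.3) and 2 agonist arrays (90.8 and 52.2), with the other 6 below 0. Its interval from saline to OVA, −2.07 to 5.08 on the log2 scale, excludes neither a large rise nor a large fall.

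Pfkl, the liver-type phosphofructokinase that opposes Fbp1, did not pass. It read 281, 244 and 210.5 on saline, 209, 207 and 256 on OVA, and 236, 248 and 280.1 on agonist arrays, with a change from saline to OVA of −0.13 ± 0.14 (adjusted p = 0.594; interval −0.45 to 0.20). The groups overlapped, and OVA replicate 3 was higher than 2 of the 3 saline arrays. Aldoa, the aldolase that follows it, is measured by 2 probe sets whose suffix _f_at marks probes shared with related sequences. The brighter went from 1888 ± 17.8 in saline to 1890 ± 81.3 in OVA lung (interval of the log2 change −0.21 to 0.21), and the other from 747 ± 44.4 to 851 ± 146, where OVA replicate 2 (1019) was high and OVA replicates 1 and 3 (784 and 752) lay within the saline range.

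Tpi1, triosephosphate isomerase, read 727, 692 and 652 on saline, 827, 819.98 and 815 on OVA, and 755, 815 and 818 on agonist arrays. All OVA arrays were above all saline arrays, by 0.25 ± 0.08 (1.19-fold), yet the adjusted p of 0.0836 missed the threshold (0.0398 to 0.205 over its alternatives, passing without the filter and with an intensity trend and robust prior). Pgk1, phosphoglycerate kinase, which makes the first ATP of the pathway, read 395, 383 and 341 on saline, 586, 691 and 628 on OVA, and 439, 417 and 567 on agonist arrays. Every OVA array exceeded every saline and every agonist array. Pgk1 rose 1.70-fold from saline to OVA (0.77 ± 0.14, adjusted p = 0.0225).

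Pkm, pyruvate kinase of muscle and most other tissues, makes the second ATP. Its brighter probe set went from 1024.5 ± 10.3 in saline to 1156 ± 68.3 in OVA lung, with no overlap, and back to 1002 ± 92.1 with the agonist (change from saline to OVA 0.17 ± 0.09, adjusted p = 0.254). The other probe set, with the suffix _f_at, stood at 432 ± 30.3, 492 ± 34.1 and 498 ± 48.6 in the same order, so that the 2 disagree for the agonist group. Ldha, the lactate dehydrogenase chain that favours lactate, read 1210 on replicate 1, 1174 on replicate 2 and 1214 on replicate 3 of saline, 1783, 1834 and 1618 on OVA, and 1299, 1424 and 1414 on agonist arrays. The 3 groups did not overlap, with OVA highest and agonist between. Ldha rose 1.45-fold from saline to OVA (0.54 ± 0.08, adjusted p = 0.0157).

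Both calls depended on single arrays. They were lost when any 1 saline array, OVA replicate 1 or OVA replicate 2 was left out. The adjusted p then reached 0.0724 for Pgk1 and 0.0674 for Ldha. The log2 changes themselves stayed between 0.70 and 0.82 for Pgk1 and between 0.50 and 0.59 for Ldha over 19 alternatives.

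**Figure D3:**
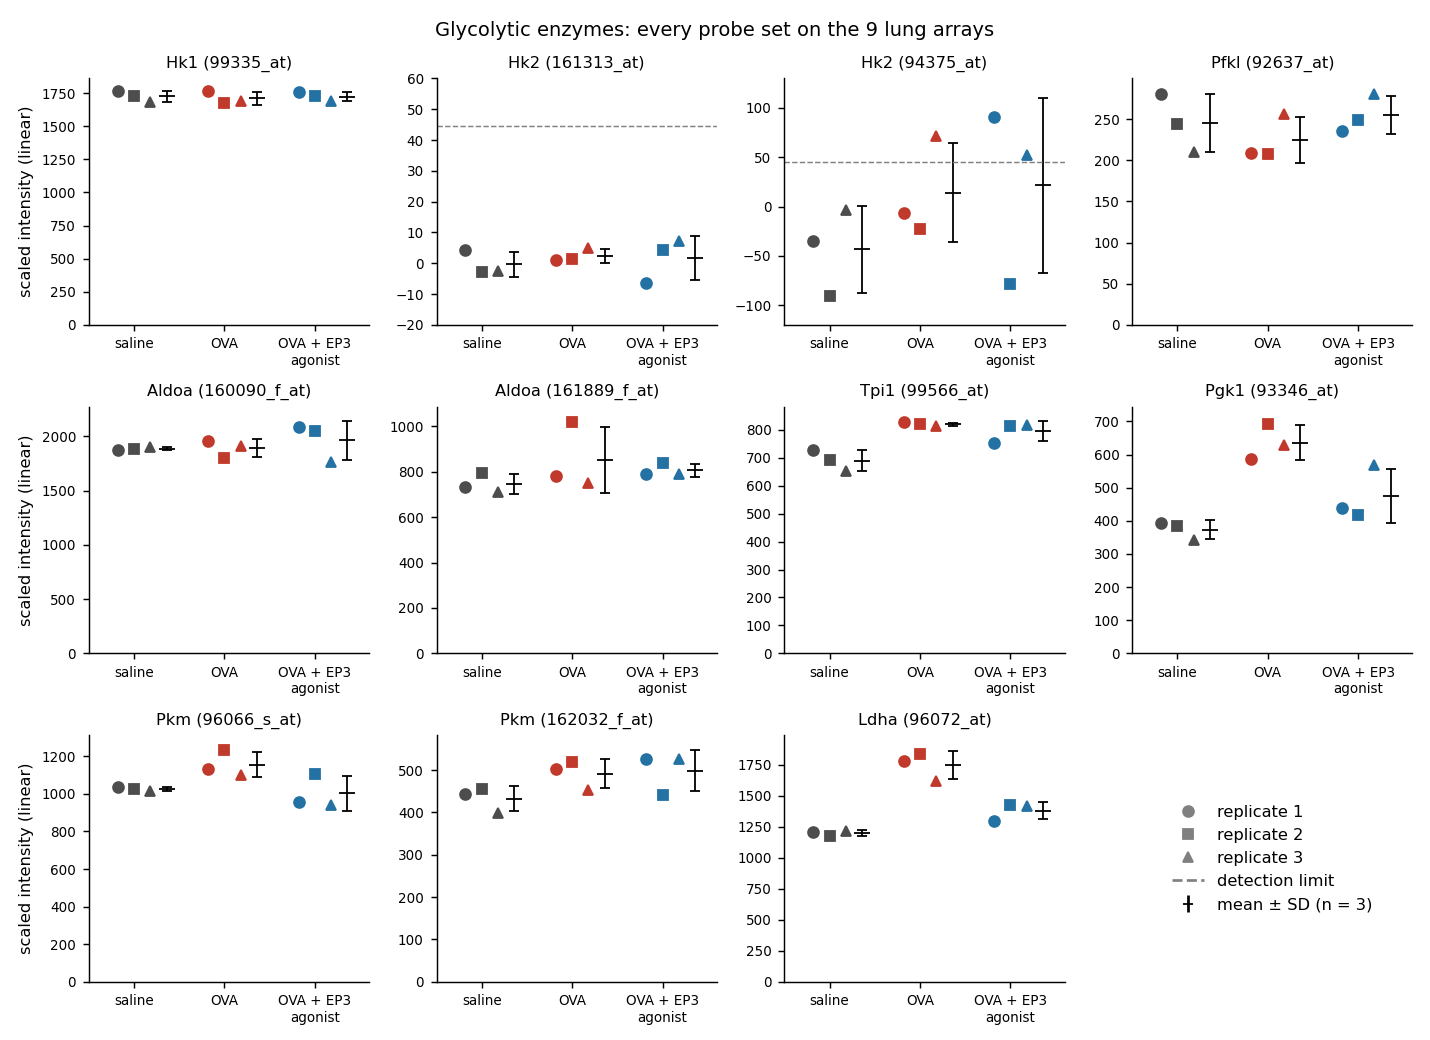
Scaled intensity (linear axes, each with its own range) of all 11 probe sets of the glycolytic enzymes on the 9 arrays, by group, with the mean and SD of 3 arrays; the dashed line in the Hk2 panels is the detection limit of 44.7. Pgk1 and Ldha are higher on every OVA array than on every saline array, Hk1 lies between 1677 and 1767 throughout, and Hk2 scatters around 0.

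The comparison of agonist with OVA lung sets mice given OVA with the EP3 agonist against mice given OVA alone, and it shares the OVA arrays with the comparison above. Of the 10 tested probe sets of glycolytic enzymes, 0 passed limma's test in either direction (2.75% of all tested probe sets passed, 1.25% being higher and 1.5% lower with the agonist). At an unadjusted p under 0.05 stood Ldha (0.00401) and Pgk1 (0.0144), as did 1919 of the 7920. Fbp1, given above as a description, is the member that differs most. Ldha changed by −0.34 ± 0.08 (adjusted p = 0.0696, interval −0.53 to −0.14) and Pgk1 by −0.43 ± 0.14 (adjusted p = 0.113, interval −0.75 to −0.11), and for both, all 3 agonist arrays lay below all 3 OVA arrays, as did 12% of all tested probe sets. Without agonist replicate 3, Pgk1 passed (change −0.57, adjusted p = 0.037; 0.037 to 0.271 over its alternatives). Ldha passed under 3 other settings of the filter or the prior (adjusted p = 0.0294 to 0.211 over its alternatives). Tpi1 stood at 796 ± 35.8 with the agonist against 821 ± 5.82 with OVA alone (−0.05 ± 0.08, adjusted p = 0.763), with overlapping groups.

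Agonist and saline lung were compared last. Here 0 of 10 glycolytic probe sets passed, where 0.0758% of all tested probe sets did (0.0379% in each direction). Tpi1, Pgk1 and Ldha had unadjusted p of 0.0319, 0.0407 and 0.0449, and 611 of the 7920 lay under 0.05. For Tpi1, Pgk1 and Ldha the agonist arrays nevertheless lay above all saline arrays (changes of 0.21 ± 0.08, 0.34 ± 0.14 and 0.20 ± 0.08, adjusted p = 0.60, 0.62 and 0.635), and 6.65% of all tested probe sets showed the same order. Among the agonist arrays Pgk1 was highest on replicate 3, at 567 against 439 and 417. Goblet cell markers (summed intensity of 6 genes 358, 906 and 5764 on agonist replicates 1, 2 and 3) were highest on the same array. Most of that sum was the tested probe set of Clca1 (257, 645 and 5194). The other Clca1 probe set was not tested and read 23.7, 23.9 and 42.3 on the same arrays, below the detection limit. Neutrophil markers (5156, 1642 and 4711) were high on replicates 1 and 3, largely through S100a8 (2281, 287 and 2026) and S100a9 (1542, 128 and 1181). Not every neutrophil marker ran this way, and Ltf read 167, 260 and 255. The part of these cells in the values of agonist lung was not tested.

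**Figure D4:**
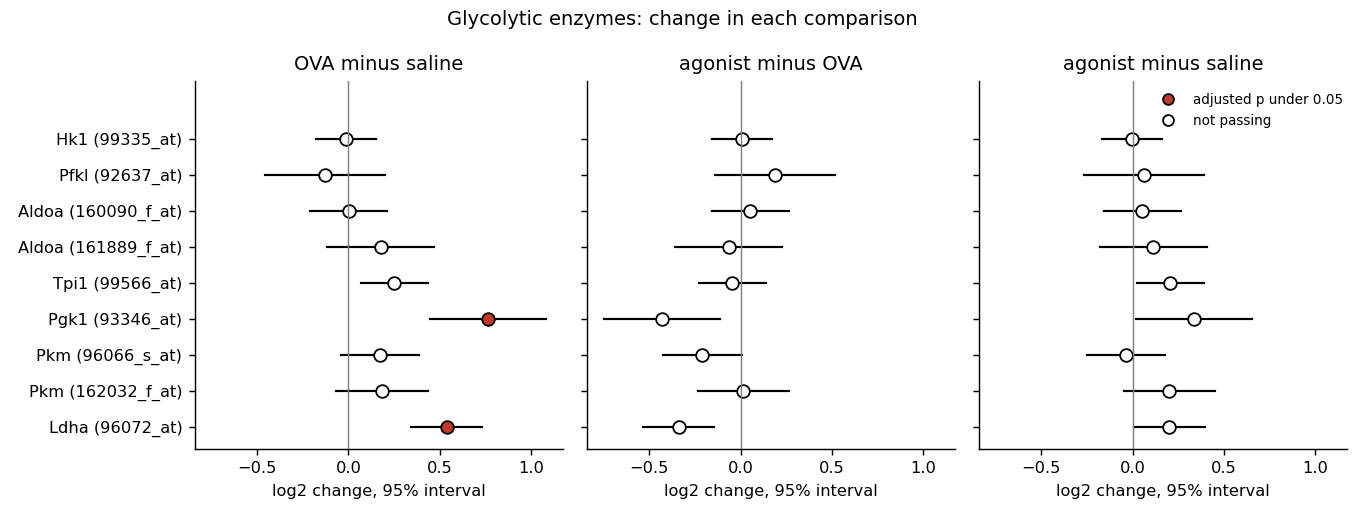
Log2 change with its 95% interval for each tested probe set of the glycolytic enzymes in the 3 comparisons, filled where limma's adjusted p was under 0.05; Hk2, whose intervals span several log2 units, is left out. Only Pgk1 (0.77) and Ldha (0.54) from saline to OVA are filled.

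How alike the members ran was read from the 9 arrays as correlations of log2 levels, which are descriptions and share the same arrays and scaling. Fbp1 ran with Ldha (r = 0.906), Pgk1 (0.824) and the brighter probe set of Pkm (0.776). With Pfkl, whose groups overlapped and whose change did not pass, r was −0.477. The saline and agonist values of Fbp1 were all held at a common floor, so each of these r sets the OVA arrays against the rest. Between the 8 tested glycolytic genes r ranged from −0.525 to 0.907 with a median of 0.0074, Ldha and Pgk1 being the closest. The members thus did not vary as 1 block. The mean profile of the 8 genes includes Hk2, whose log2 values at and above the floor vary far more than the others, and the genes most like it were Thrsp (r = 0.934), Timm8b (0.933), Ddx1 (0.926), Gpsm3 (0.9002) and Krt18 (0.9002). With Hk2 left out, a choice made after its values were seen, the profile averaged −0.11 ± 0.06 on saline, 0.11 ± 0.01 on OVA and 0.0023 ± 0.039 on agonist arrays, and the most similar genes were Tmed3 (0.99), Agr2 (0.972), Hmgb2 (0.971), B4galnt1 (0.962) and Ext1 (0.961).

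The rest of glucose metabolism was described from lists of related genes, with the brightest tested probe set of each gene. Of 8 other glycolysis enzymes and isoenzymes, 1 rose from saline to OVA and 0 fell. Over all tested probe sets 5.08% rose and 4.42% fell in that comparison, which applies to the lists that follow too. Pfkp, the platelet-type phosphofructokinase, read 79.1, 84.7 and 88.2 on saline, 154, 143 and 140 on OVA, and 104, 92.6 and 106 on agonist arrays. It rose 1.74-fold with OVA (adjusted p = 0.00912) and fell 1.45-fold from OVA to agonist (adjusted p = 0.0381), while the other Pfkp probe set changed by 0.41 (adjusted p = 0.0601). Bpgm, which makes the bisphosphoglycerate of red cells, averaged 262 ± 12.3 with saline and 149 ± 18.9 with OVA and did not pass (adjusted p = 0.0602). In that comparison 2 of 3 tested red cell markers fell. The part of red cells in the Bpgm values was not tested. Pklr, the pyruvate kinase of liver and red cells, scattered around the limit (change 1.90 ± 1.63, adjusted p = 0.472). Gapdh is on the array as a control, outside the tests: its 3′ probe set read 2260 to 2485 on saline, 2938 to 3366 on OVA, and 2659 to 3094 on agonist arrays, so that OVA lay above saline without overlap.

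Of 8 regulators of glycolysis and of pyruvate entry into mitochondria, 1 rose and 0 fell. Pdk3, a kinase that switches pyruvate dehydrogenase off, went from 261 ± 14.97 to 334 ± 14.3 (1.28-fold, adjusted p = 0.0408) and to 246 ± 11.6 with the agonist, a fall of 1.36-fold (adjusted p = 0.0444). Pdk4, its relative, stood at 86.9 ± 14.2, 60.4 ± 13.7 and 103 ± 42.6 (adjusted p = 0.279 from saline to OVA), and Pfkfb3, which makes the activator of phosphofructokinase, at 155 ± 38.7, 129 ± 34.3 and 136 ± 39.96. Of 6 tested genes of gluconeogenesis beside Fbp1, 0 rose and 1 fell. Pck1, which makes phosphoenolpyruvate for glucose synthesis, read 56.0, 58.8 and 44.0 on saline, 10.97, 23.5 and 17.1 on OVA, and 47.5, 79.2 and 45.5 on agonist arrays. It fell by 1.68 on the log2 scale (adjusted p = 0.0245) from a level near the detection limit, and by 0.24 with values held at that limit (adjusted p = 0.477). All 3 OVA arrays lay below that limit. The call ended when any 1 saline array, or OVA replicate 1, was left out. From OVA to agonist Pck1 rose by 1.76 on the log2 scale (adjusted p = 0.0421), a call lost in 12 of 18 alternatives, among them the loss of any 1 array except agonist replicate 3. Adipose tissue also expresses Pck1. Of 4 tested adipose markers 2 fell from saline to OVA and 2 rose from OVA to agonist. Over all tested probe sets 4.42% fell and 1.25% rose in these comparisons. The part of adipose tissue in the Pck1 values was not tested. Pcx and Pck2 did not pass (adjusted p = 0.439 and 0.506), and Fbp2, the muscle bisphosphatase, was below the limit on all 9 arrays.

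The pentose phosphate pathway draws sugar phosphate off glycolysis to make NADPH and ribose. Of 8 tested genes 1 rose and 0 fell. Tkt, transketolase, which joins this pathway back to glycolysis, read 313, 301 and 286 on saline, 632, 669 and 644 on OVA, and 378, 328 and 471 on agonist arrays. The 3 groups did not overlap. Tkt rose 2.16-fold with OVA (adjusted p = 0.00934) and fell 1.67-fold from OVA to agonist (adjusted p = 0.0419). Taldo1, transaldolase, averaged 199 ± 10.4 with saline and 284 ± 45.5 with OVA (adjusted p = 0.0697), and H6pd, the dehydrogenase of the endoplasmic reticulum, 993 ± 23.6 and 827 ± 39.5 (adjusted p = 0.0808). From OVA to agonist the calls of Pfkp, Tkt and Pdk3 were each lost in 10 of 19 alternatives, among them the loss of any 1 array except agonist replicate 3 (adjusted p up to 0.142, 0.141 and 0.156). The OVA calls of Pfkp and Tkt held in all 19, and that of Pdk3 was lost under the same 10 settings (adjusted p up to 0.13).

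Transport, glycogen and the citrate cycle held few calls. Of 3 tested transport genes 0 passed: Bsg, which carries lactate transporters to the membrane, averaged 1132 ± 33.5 with saline and 1320.02 ± 2.70 with OVA (adjusted p = 0.104), Slc2a3, a glucose transporter, 77.6 ± 14.6 and 45.8 ± 18.5 (adjusted p = 0.153), and Slc2a5, a fructose transporter, 149 ± 33.2 and 125 ± 16.8 (adjusted p = 0.409). Slc2a1, the widespread glucose transporter, was below the limit on all 9 arrays. Of 8 glycogen genes 0 passed. Gyg, the primer of glycogen, averaged 329 ± 76.9 with saline and 534 ± 95.8 with OVA (adjusted p = 0.107), and Pygm, the muscle phosphorylase, 71.6 ± 4.66 and 43.1 ± 11.1 (adjusted p = 0.0805). Of 14 citrate cycle genes 1 rose and 0 fell: Sdhd, a succinate dehydrogenase subunit, went from 572 ± 35.5 to 722 ± 35.8 (1.26-fold, adjusted p = 0.0475), a call that was lost without any 1 of the 9 arrays. Sdhb, another subunit, stood at 462 ± 30.5 and 597 ± 33.2 (adjusted p = 0.0535), and Idh3a at 81.7 ± 35.2 and 58.6 ± 13.1 (adjusted p = 0.556).

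Among these pathway lists, the hypoxia response outside glycolysis held the most calls from saline to OVA. Of 11 tested genes 0 rose and 4 fell, where 4.42% of all tested probe sets fell, and the median log2 change was −0.27 against −0.08 over all. Epas1, a hypoxia-inducible factor of endothelium, fell 1.88-fold (1895 ± 140 to 1007 ± 96.9, adjusted p = 0.0115) and rose 1.76-fold from OVA to agonist (adjusted p = 0.0356; lost without any 1 array except OVA replicate 3 and agonist replicate 3). Vegfa, the endothelial growth factor, fell 1.63-fold (adjusted p = 0.0369), and Bnip3, a mitochondrial death factor, fell 1.51-fold (169 ± 5.45 to 113 ± 13.4, adjusted p = 0.0242). Leaving out any 1 saline array, or OVA replicate 1, ended the call of Bnip3, and that of Vegfa ended without any 1 array except OVA replicate 3 and agonist replicate 3 (adjusted p up to 0.0882 and 0.124). Of 10 endothelial markers 7 fell in the same comparison, and their summed intensity ran from 13501 to 13752 on saline, from 9248 to 10458 on OVA, and from 12580.2 to 13940 on agonist arrays. Of 6 alveolar type 1 markers 5 fell, Vegfa being on that list as well, and of 5 club cell markers 3 fell. Summed intensity of the type 1 markers ran from 15571 to 17192 on saline, from 11396 to 12665 on OVA, and from 15000.3 to 16465 on agonist arrays. Club cell markers ran from 20653 to 24780.5, from 15039 to 17948, and from 21290 to 23436 in the same order. The part of these cells in the falls was not tested.

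**Figure D5:**
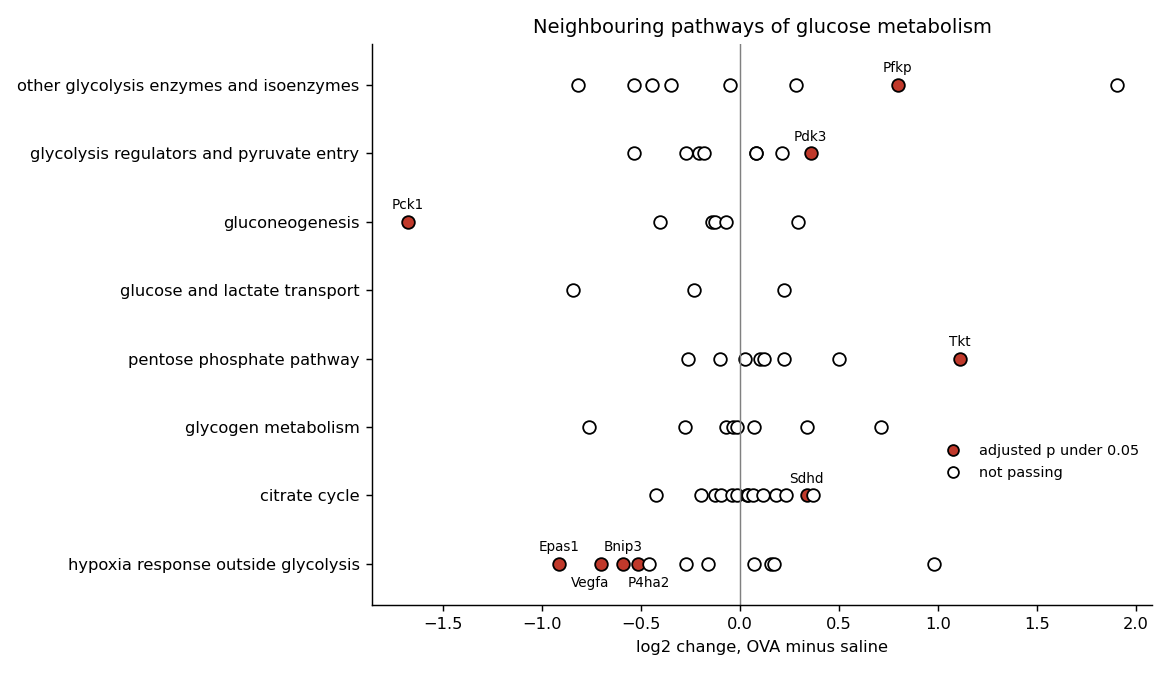
Log2 change from saline to OVA lung of every tested gene of 8 lists around the glycolytic enzymes, 1 point per gene, filled and named where limma's adjusted p was under 0.05. Tkt (1.11) and Pfkp (0.80) are the highest filled points and Epas1 (−0.91) is among the lowest. Pck1 is drawn at −1.68 and lay below the detection limit on all 3 OVA arrays. With values held at that limit its change was −0.24. The 4 filled points of the hypoxia list all lie below 0.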

How the data were processed

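The authors deposited 1 intensity per probe set and array, on a linear scale and with values below 0. Their upstream processing is not given in the sources used. Each array was scaled so that its 2% trimmed mean equalled the mean over the 9, and values below 3.1, the 20th percentile, were set to it before log2. Tests cover the 7920 of 12422 probe sets with 3 or more arrays above the 40th percentile, without 66 controls. Of these 12422, 10833 carry 1 gene symbol, 396 several and 1193 none, and 10817 were matched by gene ID to RefSeq (GRCm38.p6), which renamed 0. Groups were compared with limma 3.58.1 (R 4.3.3; lmFit, eBayes) in 1 fit of all arrays, threshold 0.05. Where 1 group lay above and the other at or below the detection limit on all arrays, the fold is the geometric mean over that limit ("at least").

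Members and lists were chosen with earlier results of these data known. Named are all members, from each list at most 3 genes (those that passed, then by size of change), and the 5 genes most like Fbp1 or the glycolytic mean. The fit was tested on simulated data. Over the 3 comparisons it recovered 29.6% to 32.5% of 1.5-fold changes and 61.3% to 64.8% of 2-fold changes. A change of such a size that did not pass may thus have been missed. Alternatives changed the scaling, floor, filter, prior, samples fitted, block and arrays kept.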

Additional observations from a re-analysis of the deposited data

How the results depend on the processing

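The change of Fbp1 from saline to OVA depends on the floor: 6.92 on the log2 scale as processed, 8.56 with log2 of the value + 1 and 3.07 with a floor at the 40th percentile, and −6.92, −8.56 and −3.07 from OVA to agonist. Without an OVA array fewer than 3 arrays exceed the limit, so the filter removes Fbp1. Leaving out a saline or agonist array, all at the floor for Fbp1, shows nothing about its stability. The counts below include the fit of Fbp1, which is no independent call since its values were known. From saline to OVA the count of member probe sets was 3 as processed, 4 without a filter, with an intensity trend and robust prior, and at a threshold of 0.1 (Tpi1 added), and 1 with the replicate number as a replicate block, where Pgk1 and Ldha had adjusted p of 0.068 and 0.0624. It ran from 0 to 3 over the arrays left out. From OVA to agonist the count was 1, and 2 without a filter, with a filter at the 60th percentile, with an intensity trend and robust prior, and at a threshold of 0.1, and 0 to 2 over the arrays left out. Averaging each gene's probe sets, added after seeing the data, gave 3, 1 and 0 in the 3 comparisons. For glycolytic members and named pathway genes, 15 calls were recomputed, of which 13 were lost in at least 1 alternative and 0 reversed. Calls of marker genes were not recomputed.

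Same-numbered arrays did not deviate together (correlations −0.139 to 0.169), so the numbers were not taken as pairs.

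Changes near 0 that did not pass changed sign. From saline to OVA these were Hk1 (0.019 with equal array medians, −0.034 to 0.0052 over arrays left out) and the brighter Aldoa probe set (−0.044 with quantile normalization, −0.026 to 0.035). From OVA to agonist they were Hk1 (−0.0028 with equal medians, −0.0053 to 0.033), the dimmer Aldoa probe set (−0.15 to 0.071) and the dimmer Pkm probe set (−0.041 to 0.10). From saline to agonist they were Hk1 (0.017 with equal medians, −0.020 to 0.015), the brighter Aldoa probe set (−0.0016 with quantile normalization), Pfkl (−0.043 to 0.16) and the brighter Pkm probe set (−0.11 to 0.0089). The causes were not tested. Values of Hk2, Pck1 and Pklr lie near or below the detection limit, so the size of their changes is uncertain.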
